A study of Mus musculus with 23 samples.

Results

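The genes described here are 44 markers of cell proliferation in mouse glioma, 19 of them annotated to the G1/S transition and S phase and 25 to G2 and mitosis. They were taken by name from standard cell cycle and replication lists, with earlier results of these data known. All 44 were found among the 35576 genes summarised from the deposited transcript estimates. GL261 and CT2A are glioma lines induced with methylcholanthrene in C57BL/6 mice, and here both carried luciferase. All 23 libraries were RNA-seq of tumors grown in the right striatum of female albino C57BL/6 mice. Bulk tumors of GL261-luc2 (n = 4) and CT2A-luc (n = 4) were sequenced without sorting, so that their RNA includes brain and infiltrating cells. Reporter sublines of both lines were implanted either from adherent culture (n = 4 and n = 3) or from neurosphere culture (n = 3 and n = 5), and their tumor cells were purified from the tumors by magnetic selection before RNA extraction. No mouse received an experimental treatment in the labels used here. The 5 CT2A neurosphere libraries carry GL261 in their sample titles but CT2A in their cell line field and description, and the cell line field was followed. In those 5 libraries Cdkn2b stood between 0 and 0.185 CPM, against 0 in all 3 CT2A adherent libraries and a mean of 13.9 CPM in GL261 adherent libraries. Cdkn2b alone does not settle the line, and its level in GL261 neurosphere libraries is not given here. Nothing in the labels says whether a subline is 1 clone, and the p-values measure the spread between these libraries.

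In the cell cycle, cyclin E and the E2F transcription factors drive the entry into S phase, and the genes they act on include those for origin licensing, the replicative helicase and nucleotide supply. A later wave of genes, transcribed in G2 through the MuvB complex with B-Myb and FoxM1, supplies the mitotic kinases, the spindle motors and the anaphase-promoting complex that ends mitosis. In glioma, transcripts of both waves serve as markers of dividing tumor cells, and Mki67 is the usual marker in tissue sections.

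The promoters of the 2 waves differed in the short sequences they hold, and 7 of them are shown because the members they belong to carry the contrast between the lines described below or hold the clearest matches. RefSeq promoter windows of 300 bases (250 before to 50 after the annotated start, GRCm38.p6) were matched for 36 of the 44 members, and for Ccna2, Ccne2, Aurkb, Tpx2, Gins2, Kif20a, Foxm1 and Mcm4 no window was matched. Capitals mark the CHR core TTTGAA, the NF-Y box CCAAT and the E2F sites TTTGGCGC, TTTCCCGC, TTTCGCGC and TTTGCCGC on either strand, a match on the other strand appearing as the reverse complement, and E2F sites of opposite strands can overlap. Each sequence runs 5′ to 3′ on the strand of its gene, from 160 bases before to 15 bases after the start.
Cdc20, chr4:118437329-118437503, minus strand: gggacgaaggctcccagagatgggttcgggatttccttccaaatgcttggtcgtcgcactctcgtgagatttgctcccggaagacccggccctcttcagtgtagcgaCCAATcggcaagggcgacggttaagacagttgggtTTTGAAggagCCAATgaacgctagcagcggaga
Ccnb2, chr9:70421540-70421714, minus strand: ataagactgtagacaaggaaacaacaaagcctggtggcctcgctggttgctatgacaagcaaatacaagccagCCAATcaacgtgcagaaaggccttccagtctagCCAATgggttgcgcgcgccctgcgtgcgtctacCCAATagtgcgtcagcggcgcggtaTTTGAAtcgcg
Kif11, chr19:37376222-37376396, plus strand: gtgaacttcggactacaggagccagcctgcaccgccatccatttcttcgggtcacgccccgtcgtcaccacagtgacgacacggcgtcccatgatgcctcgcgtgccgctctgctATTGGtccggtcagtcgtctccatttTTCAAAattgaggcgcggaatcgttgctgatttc
Kif23, chr9:61946785-61946959, minus strand: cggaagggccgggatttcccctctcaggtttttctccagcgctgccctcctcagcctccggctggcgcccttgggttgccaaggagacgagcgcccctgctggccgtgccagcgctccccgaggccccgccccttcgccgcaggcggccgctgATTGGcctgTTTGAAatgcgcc
Mcm5, chr8:75109349-75109523, plus strand: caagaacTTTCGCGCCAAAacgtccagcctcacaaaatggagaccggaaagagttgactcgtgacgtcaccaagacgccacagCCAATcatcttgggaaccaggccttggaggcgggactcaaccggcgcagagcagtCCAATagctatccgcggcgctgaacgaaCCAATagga
Mcm6, chr1:128359691-128359865, minus strand: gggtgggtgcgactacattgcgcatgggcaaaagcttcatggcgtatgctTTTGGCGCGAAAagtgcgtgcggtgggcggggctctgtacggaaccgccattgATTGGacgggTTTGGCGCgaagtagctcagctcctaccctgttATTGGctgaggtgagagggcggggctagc
Rrm2, chr12:24708094-24708268, plus strand: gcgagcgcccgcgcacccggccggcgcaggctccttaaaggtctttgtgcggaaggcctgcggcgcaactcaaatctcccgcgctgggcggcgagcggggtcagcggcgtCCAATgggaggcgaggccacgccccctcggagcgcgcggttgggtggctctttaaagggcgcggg

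The CHR core was found in 15 of 20 G2/M members (75%), 2 of 16 G1/S members (12.5%) and 20.2% of the 27025 genes with a window. The NF-Y box was found in 18 of 20 G2/M members (90%), 9 of 16 G1/S members (56.2%) and 41.1% of all genes. An E2F site was found in 1 of 20 G2/M members (5%), 7 of 16 G1/S members (43.8%) and 2.6% of all genes. In Cdc20, Ccnb2, Kif11 and Kif23 the CHR core lay at positions -18, 5, -19 and 3 from the start, and Ccnb2 had another at -167, outside the stretch printed. These are matches of letters and not measured binding. Matches occurred in members that moved in either direction between the lines. In sorted cells of adherent lines the CHR core was present in 3 of 5 matched G2/M members higher in CT2A. It was present in 9 of 10 lower and 3 of 5 not past the test. These numbers are too small to compare the directions.

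**Figure D1:**
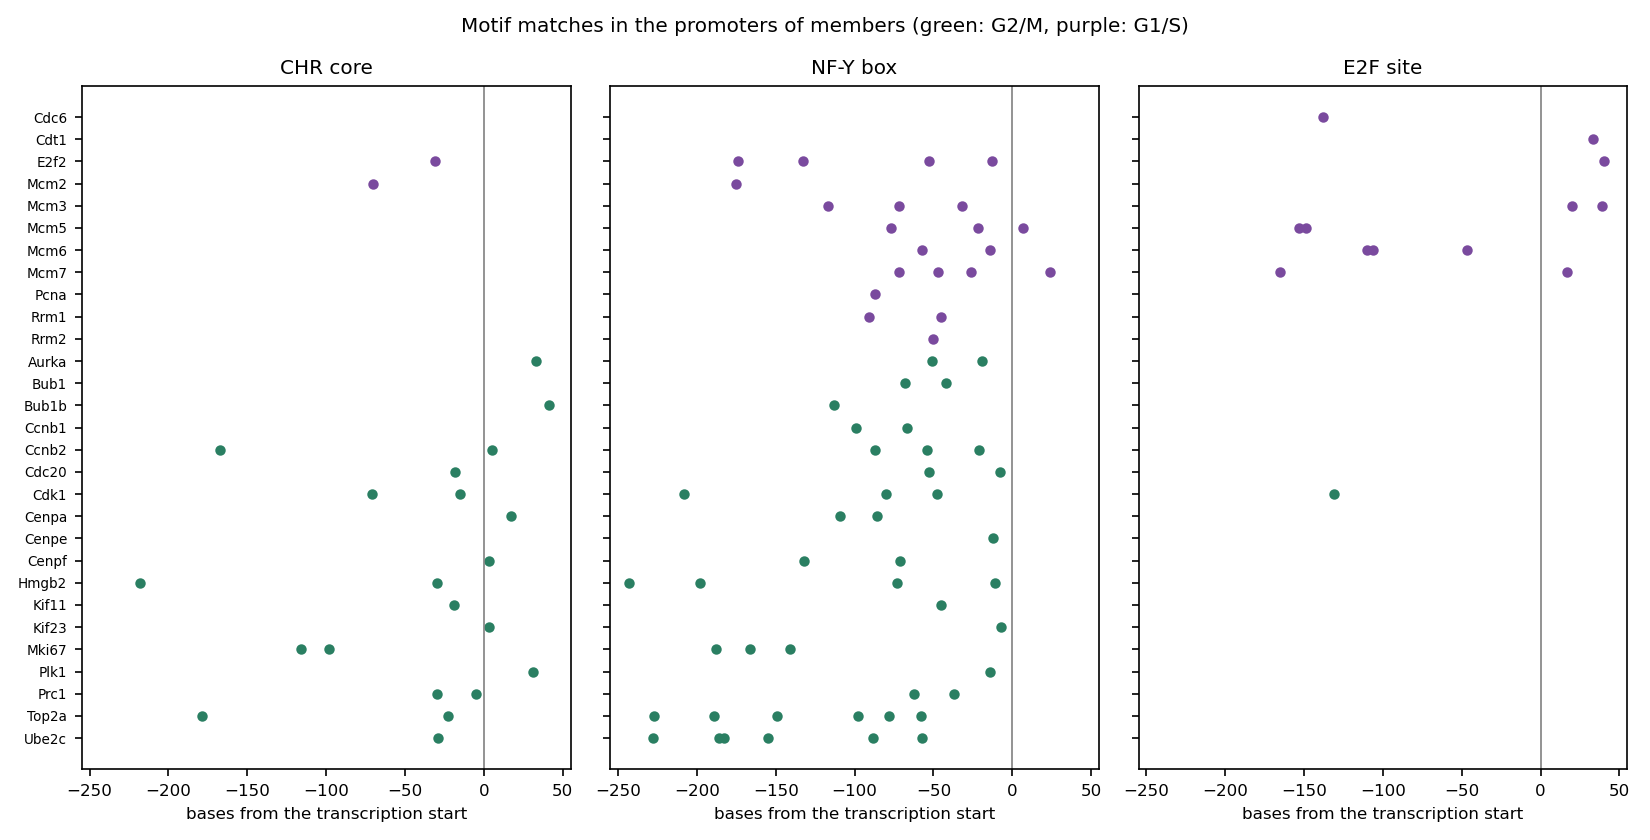
Positions of CHR core, NF-Y box and E2F site matches in the RefSeq promoter windows of the 29 members with at least 1 match; the x axis is the distance in bases from the annotated start and each row is a gene, with the windows of the 3 members that have 2 laid over each other. CHR cores were found in 15 of 20 G2/M members and in 2 of 16 G1/S members.

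Levels are given as CPM (counts scaled to library size) within a gene and as TPM, which also accounts for transcript length, between genes. By TPM, Pcna, the replication clamp, Top2a, which untangles chromosomes, and Cdk1, the mitotic kinase, were among the 4 most abundant members in all 6 groups. Pcna averaged 237 ± 57.4 TPM (SD, n = 4) in GL261 bulk tumors and 272 ± 36.9 TPM (n = 4) in CT2A bulk tumors, and the E2F factor E2f2 was the least abundant member in every group, with group means from 2.79 to 6.23 TPM. Pcna, Top2a and Cdk1 lay within each other's spread in GL261 bulk tumors, where Top2a averaged 298 ± 91.8 TPM and Cdk1 303 ± 104 TPM. Mki67 was read at 148 to 372 CPM across the 8 bulk libraries and at 181 to 306 CPM across the 15 sorted ones.

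Depth was 34622622 to 42608400 reads for GL261 bulk tumors and 7395846 to 15263587 reads for the other 19 libraries. The bulk libraries were not alike in cellular content. In GL261 bulk replicate 412, the lowest of its group for 43 of 44 members, the mean log2(CPM + 1) of 9 neuron markers was 8.46, and in replicate 405, the highest for 40 of 44, it was 4.19. In CT2A bulk tumors the same score was 7.08 and 5.63 in replicates 39 and 40 and 7.60 and 7.97 in replicates 47 and 48, where the members were lower. No neuron marker was at 0 in a bulk group, and the summed level of the 9 ran from 212 to 4001 CPM in GL261 and from 505 to 3133 CPM in CT2A bulk tumors. In bulk tissue, fewer dividing cells and less of these RNAs per cell cannot be told apart, and the part of brain tissue in the bulk results was not tested. Among sorted cells, GL261 adherent replicate 81 and CT2A neurosphere replicate 59 stood apart for the members, as described at the end.

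A score for each phase, the mean log2(CPM + 1) of its members, was set beside the other within each library. The G1/S score minus the G2/M score was -0.69 ± 0.11 (SD, n = 4) in GL261 and -0.39 ± 0.02 (n = 4) in CT2A bulk tumors, -1.03 ± 0.34 (n = 4) and -0.23 ± 0.04 (n = 3) in sorted cells of adherent lines, and -0.64 ± 0.06 (n = 3) and -0.22 ± 0.20 (n = 5) in sorted cells from neurosphere culture. Relative to their G2/M members, CT2A libraries had more G1/S transcript: the lowest CT2A library, at -0.51, was neurosphere replicate 59, and the highest GL261 library, at -0.55, was bulk replicate 412. All 12 CT2A libraries therefore stood above all 11 GL261 libraries, although these closest libraries lay nearly together. The G1/S score alone overlapped between the lines in bulk tumors (5.17 to 6.44 against 5.75 to 6.22) and did not in sorted cells of adherent lines (5.12 to 5.65 against 6.06 to 6.15) or from neurospheres (5.29 to 5.68 against 6.04 to 6.41). The G2/M score overlapped in bulk tumors (5.73 to 7.11 in GL261 against 6.11 to 6.63 in CT2A) and in adherent-line cells (6.29 to 6.65 against 6.24 to 6.39). From neurospheres it was higher in CT2A, with means of 6.14 and 6.47, and the ranges met at 6.30 (5.99 to 6.30 against 6.30 to 6.59).

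**Figure D2:**
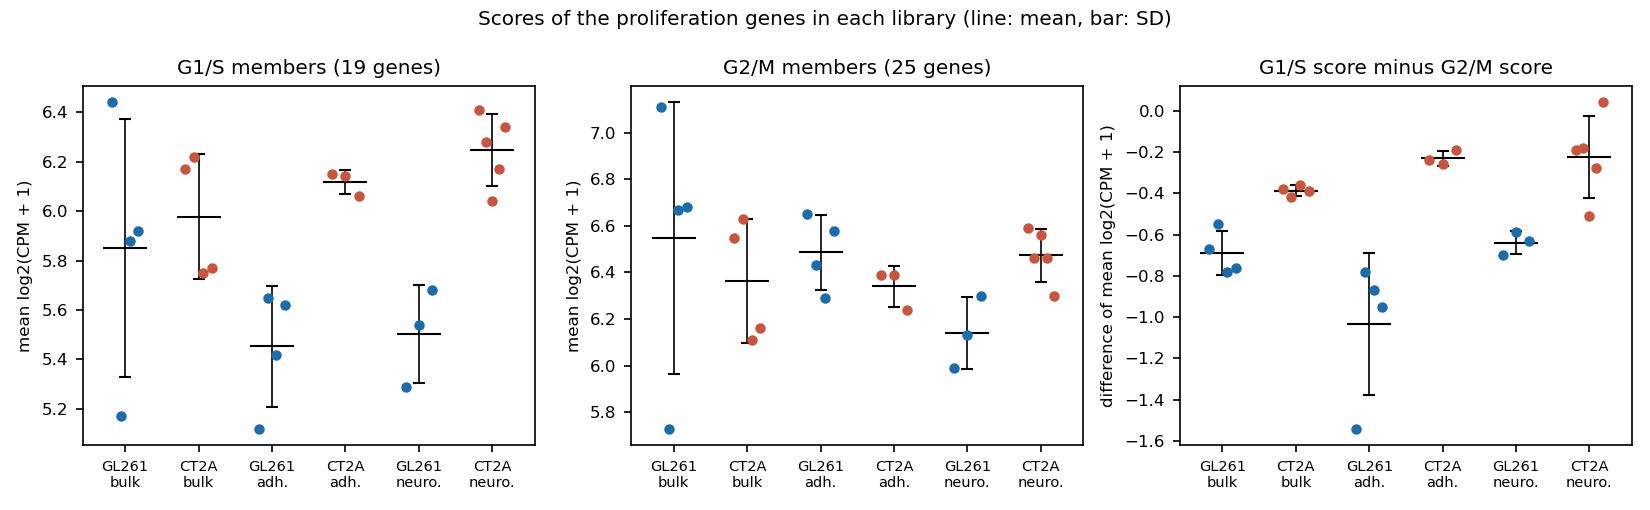
Mean log2(CPM + 1) of the 19 G1/S and the 25 G2/M members and their difference in each of the 23 libraries, by group (x axis); points are libraries and bars the mean with its SD. The difference lies above -0.55 in all 12 CT2A libraries and at or below it in all 11 GL261 libraries.

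The first question was how the lines differ in tumor cells grown from adherent culture and purified from the tumor. All G1/S members that passed the test were higher in CT2A than in GL261 cells, and G2/M members went both ways, with Kif11 and Cenpe among the higher and Cdc20 and Ccnb2 among the lower. Of 44 members, 15 were higher and 10 lower in CT2A (edgeR quasi-likelihood test, adjusted p below 0.05), which is 56.8%, against 50.8% of all 13792 genes tested (24% higher and 26.8% lower). By share called, then, the members as a whole resembled the transcriptome, and the distinction lay in direction. All 9 calls among the 19 G1/S members were higher in CT2A, with a median log2 fold change of 0.45 against -0.01 for all genes. The 25 G2/M members divided into 6 higher and 10 lower, with a median of -0.02. Markers of other cells moved in the same comparison: 5 of 8 oligodendrocyte markers were lower in CT2A, with summed levels of 548 to 1024 CPM in GL261 and 248 to 367 CPM in CT2A libraries. Of 8 endothelial markers 4 were lower, with sums of 64 to 271 and 88.6 to 130 CPM, and of 8 T cell markers 3 were tested and 2 were lower, with sums of 13.6 to 20 and 3.69 to 8.88 CPM. B cell sums were lower as well, at 15.8 to 25.3 CPM in GL261 and 4.83 to 11.9 CPM in CT2A. Some other lists had higher mean scores in CT2A, among them macrophage (5.07 in GL261 and 5.91 in CT2A) and neuron markers (2.11 and 2.82). Pericyte markers did too (2.03 and 2.41), with sums of 14.4 to 55.6 and 104 to 149 CPM, whereas macrophage and neuron sums overlapped. None of these markers was at 0 in every library of a group, and their part in the result was not tested.

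By role, all 5 cyclin E and E2F-family regulators were higher in CT2A adherent cells. E2f1, an activator of S phase genes, was at 23.2, 24.6, 24.8 and 28.3 CPM in GL261 and 47.5, 45.2 and 50 CPM in CT2A. The lines did not overlap, and the log2 fold change was 0.86 ± 0.13 (SE, adjusted p = 0.000679). Ccne2, encoding cyclin E2, which activates CDK2 at S phase entry, was at 3.57, 10.8, 10.6 and 8.26 CPM in GL261 and 35.7, 36.4 and 29.2 CPM in CT2A. Its log2 fold change of 1.97 ± 0.34 (adjusted p = 0.00166) was the highest of the 44 members here, with replicate 81 the lowest GL261 library. Mybl2 (B-Myb) differed by 0.82 ± 0.17, E2f2 by 0.97 ± 0.26 and Ccne1 (cyclin E1) by 0.62 ± 0.18 on the log2 scale.

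The nucleotide synthesis genes and the replication machinery differed less uniformly. Rrm2, the regulated small subunit of ribonucleotide reductase, was at 13.7, 44.3, 35.9 and 44.9 CPM in GL261 and 131, 142 and 113 CPM in CT2A adherent cells, a log2 fold change of 1.83 ± 0.35 (adjusted p = 0.00289) without overlap. Its partner Rrm1 differed by 0.71 ± 0.15, while Tk1 (thymidine kinase, 0.12 ± 0.17) and Tyms (thymidylate synthase, 0.19 ± 0.15) did not pass the test. Mcm4, a subunit of the MCM2-7 helicase, was at 68, 109, 89.9 and 89.3 CPM in GL261 and 157, 181 and 169 CPM in CT2A, again without overlap (0.87 ± 0.17, adjusted p = 0.00298). The other 5 helicase subunits, Mcm2, Mcm3, Mcm5, Mcm6 and Mcm7, ranged from -0.23 to 0.40 and did not pass. Of the remaining licensing and fork genes Pcna passed (0.45 ± 0.14), and Cdt1, Gins2 and Cdc6 did not, at 0.18, 0.44 and 0.72. The call of Pcna was lost in 3 of 7 fits without 1 library.

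Among G2/M members, the 6 higher in CT2A adherent cells were Kif11, Cenpe, Ccna2, Kif23, Bub1b and Bub1. Kif11, the motor that separates the spindle poles, was at 64, 59.2, 53.3 and 65.6 CPM in GL261 and 129, 150 and 135 CPM in CT2A (1.13 ± 0.12, adjusted p = 0.000116). Cenpe, a kinetochore motor that aligns chromosomes, was at 77.6, 86.8, 78.7 and 123 CPM in GL261 and 169, 222 and 209 CPM in CT2A (1.07 ± 0.19, adjusted p = 0.00175). Neither gene overlapped between the lines. Ccna2, cyclin A2, was at 145, 97.5, 91.7 and 105 CPM in GL261 and 211, 194 and 183 CPM in CT2A (0.79 ± 0.17, adjusted p = 0.00513). Kif23, a midzone motor needed for cytokinesis, was at 86.5, 54.5, 51.5 and 65.2 against 108, 126 and 112 CPM (0.79 ± 0.19, adjusted p = 0.00765). In both, replicate 81 was the highest GL261 library and still below every CT2A library. The checkpoint kinases also differed without overlap: Bub1b was at 49, 63.2, 56.4 and 69.4 against 91.1, 98.7 and 95.5 CPM (0.62 ± 0.14, adjusted p = 0.00652), and Bub1 at 55.5, 52.6, 47.1 and 73.3 against 95.9, 89.6 and 83.7 CPM (0.60 ± 0.16, adjusted p = 0.0156).

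The other 10 called G2/M members were lower in CT2A adherent cells. Ccnb2, a B-type cyclin of CDK1, was at 47.7, 48.5, 41.1 and 44.8 CPM in GL261 and 17.3, 18.7 and 18.5 CPM in CT2A adherent cells (-1.38 ± 0.13, adjusted p = 6.22e-05). Cdc20, the activator of the anaphase-promoting complex, was at 161, 95.7, 85.8 and 102 CPM in GL261 and 30.8, 29.1 and 24.8 CPM in CT2A (-2.03 ± 0.24, adjusted p = 0.000195). Each CT2A library was under every GL261 library for both genes. Hmgb2, a chromatin protein abundant in dividing cells, was at 291, 171, 148 and 150 CPM in GL261 and 59.1, 53.6 and 46.2 CPM in CT2A (-1.89 ± 0.26, adjusted p = 0.000504). Cenpa, the centromeric histone, was at 161, 136, 120 and 98.6 against 67.1, 49.7 and 46.8 CPM (-1.29 ± 0.21, adjusted p = 0.00109). Here too the lines did not overlap. The other 6 lower members were Prc1 (-0.92), Cenpf (-0.78), Ube2c (-0.73), Aurka (-0.68), Nusap1 (-0.61) and Plk1 (-0.38), which include the ubiquitin-conjugating enzyme of the anaphase-promoting complex and the kinases Aurora A and Polo-like 1. The call of Plk1 was lost in 5 of 7 fits without 1 library and under 4 of 9 other settings. Ccnb1, the other B-type cyclin, did not pass, at 0.44 ± 0.17 (adjusted p = 0.0571), so that the 2 cyclins had opposite signs.

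**Figure D3:**
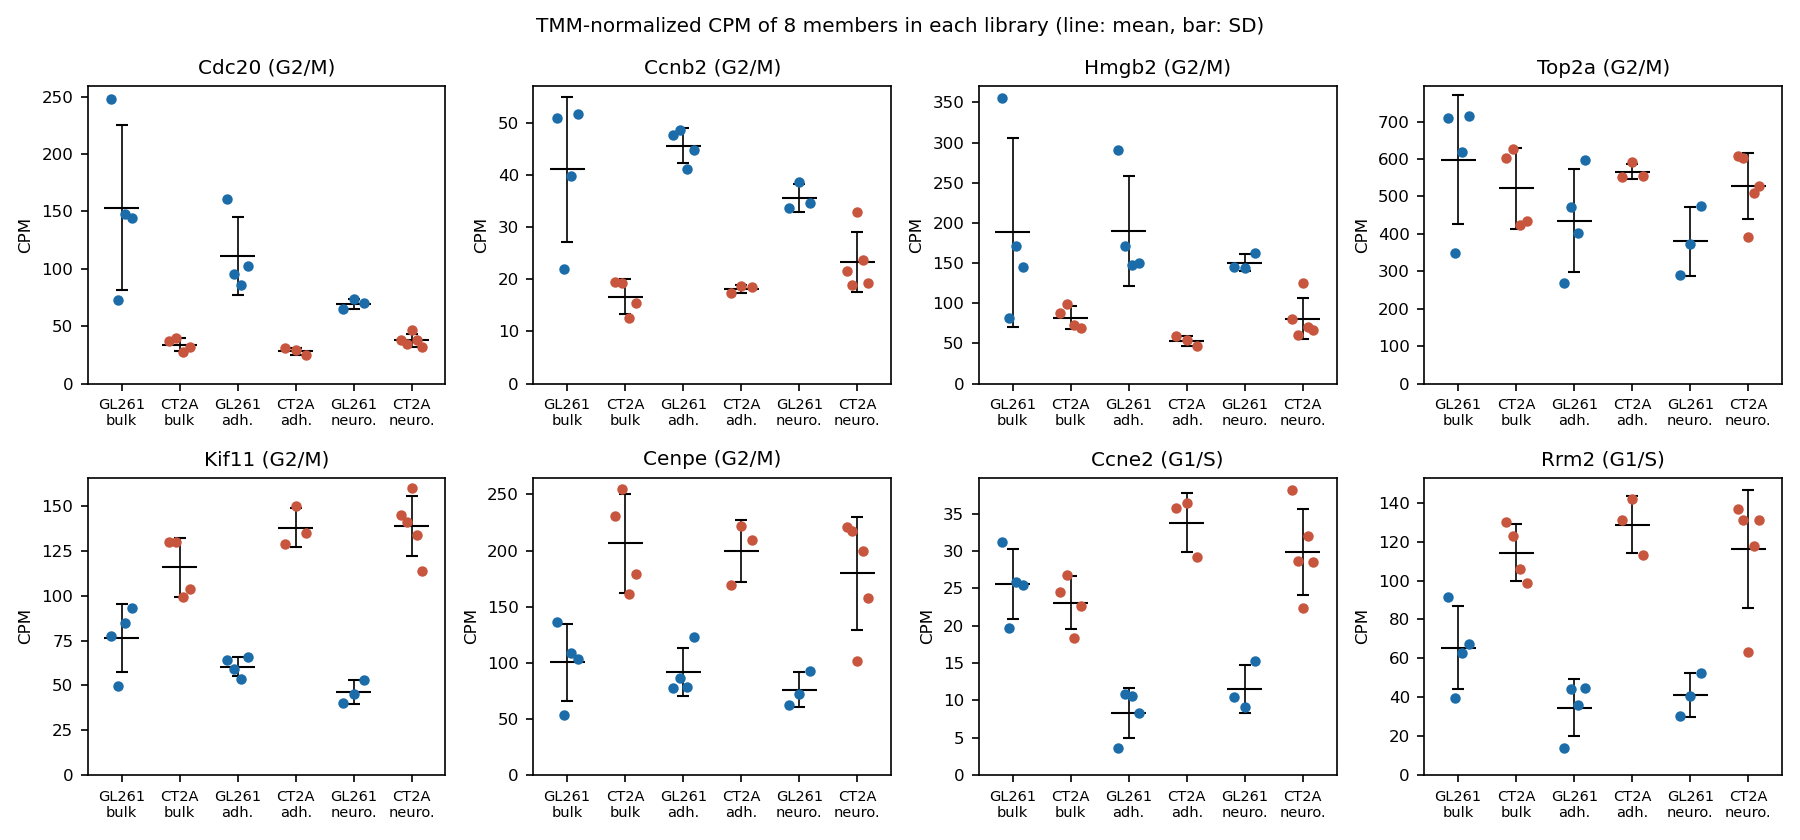
CPM of Cdc20, Ccnb2, Hmgb2, Top2a, Kif11, Cenpe, Ccne2 and Rrm2 in each library; x labels give bulk tumors and sorted cells from adherent (adh.) or neurosphere (neuro.) culture, GL261 in blue and CT2A in red, with the mean and SD. Cdc20 and Ccnb2 lie lower in CT2A and Kif11 and Cenpe higher, whereas Top2a overlaps between the lines in bulk tumors.

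The same comparison after neurosphere culture used other libraries and gave 24 members higher and 4 lower in CT2A, 63.6% against 59.5% of all 13742 genes tested (29.9% higher and 29.6% lower). G1/S members were higher in 14 of 19 cases and lower in none, with a median log2 fold change of 0.70 against 0.03 for all genes. G2/M members were higher in 10 of 25 cases and lower in 4, with a median of 0.30. Levels of 11 of 11 macrophage and microglia markers were lower in CT2A here. Their summed levels were 4432 to 7062 CPM in GL261 and 453 to 2347 CPM in CT2A neurosphere libraries. The GL261 fraction therefore held more of these transcripts. Summed oligodendrocyte markers were at 538 to 607 CPM in GL261 and 30.1 to 318 CPM in CT2A. Endothelial sums were 194 to 256 and 36.8 to 110 CPM, and astrocyte sums 396 to 541 and 101 to 371 CPM. T cell, B cell and erythroid sums were also higher in GL261. Neutrophil sums were higher in CT2A, and NK cell, pericyte and neuron sums overlapped. The part of those cells in the member differences was not tested. In adherent libraries the summed macrophage marker level was 158 to 933 CPM in GL261 and 650 to 1302 CPM in CT2A.

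E2f1 stood at 27, 28 and 25.9 CPM in GL261 and 69.6, 64.8, 61.7, 57.7 and 68 CPM in CT2A neurosphere libraries (1.21 ± 0.12, adjusted p = 1.50e-05). Mybl2 was at 22.5, 32.2 and 32.2 CPM in GL261 and 67.6, 74, 76.3, 73 and 65.3 CPM in CT2A (1.25 ± 0.15, adjusted p = 5.81e-05). Neither regulator overlapped between the lines. Rrm1 was at 107, 123 and 138 CPM in GL261 and 249, 244, 217, 204 and 227 CPM in CT2A (0.85 ± 0.13, adjusted p = 0.000238), and Mcm4 at 85.7, 97.9 and 106 against 176, 179, 170, 153 and 164 CPM (0.76 ± 0.11, adjusted p = 0.000264). All 4 nucleotide synthesis genes passed (0.57 to 1.45), as did 6 of 10 licensing and helicase genes, 3 of them MCM subunits (Mcm2, Mcm4 and Mcm7). The calls of Tyms and Mcm7 were lost in 6 of 8 fits without 1 library and that of Pcna in 5 of 8, and all 3 were lost in the fit over all 6 groups. E2f2 was the 1 regulator of the 5 that did not pass, at 0.44 ± 0.18 (adjusted p = 0.0634).

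Kif11 had the smallest p of the G2/M members, at 40.3, 45.3 and 53.2 CPM in GL261 and 145, 141, 160, 134 and 114 CPM in CT2A neurosphere libraries (1.54 ± 0.15, adjusted p = 1.37e-05). Kif23 was at 40.6, 49.3 and 54.1 CPM against 137, 123, 117, 113 and 106 CPM (1.26 ± 0.14, adjusted p = 3.32e-05). For both motors every CT2A library was at least 106 CPM and every GL261 library at most 54.1 CPM. Ccna2 was at 83.4, 92.8 and 108 CPM in GL261 and 215, 217, 240, 198 and 171 CPM in CT2A (1.09 ± 0.14, adjusted p = 0.000111). Bub1 was at 40.7, 45.2 and 55.2 CPM against 111, 93.5, 88.1, 72.6 and 96.8 CPM (0.93 ± 0.16, adjusted p = 0.000689). Neither overlapped. Foxm1, the transcription factor of late cell cycle genes, differed by 1.01 ± 0.18, Ccnb1 by 0.97 ± 0.19 and Aurkb by 0.62 ± 0.16, all 3 higher in CT2A and none of them past the test in adherent cells.

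The 4 lower members of the neurosphere comparison went against the majority of G2/M members. Cdc20 was at 65, 73.3 and 69.8 CPM in GL261 and 37.7, 34.2, 46.8, 38.3 and 31.6 CPM in CT2A (-0.92 ± 0.14, adjusted p = 0.00029). Hmgb2 was at 145, 144 and 163 CPM against 80.9, 60.3, 125, 70.8 and 66.5 CPM (-0.95 ± 0.22, adjusted p = 0.00362), with CT2A replicate 59 the highest of its group and still under GL261. Ccnb2 was at 33.6, 38.6 and 34.6 CPM against 21.6, 18.8, 32.9, 23.6 and 19.2 CPM (-0.66 ± 0.19, adjusted p = 0.0137). In replicate 59 it lay just under the lowest GL261 library. Nusap1, a spindle microtubule bundler, was at 47, 51.3 and 58.8 CPM in GL261 and 46.6, 43.2, 46.8, 39.8 and 39.8 CPM in CT2A (-0.32 ± 0.12, adjusted p = 0.0452), nearly touching. Its call was lost in 6 of 8 fits without 1 library and under 6 of 8 other settings. Without GL261 replicate 90, 2 members were lower.

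Bulk tumors gave the third, independent comparison of the lines. By the study's methods fewer CT2A than GL261 cells were implanted for the bulk tumors, whereas the reporter sublines were implanted in equal number. The part of this in the bulk results was not tested. Of the 44 members 1 was higher and 2 lower in CT2A, 6.82% against 23.3% of all 16451 genes tested (11.4% higher and 11.9% lower). The median log2 fold change was -0.02 for G1/S and -0.14 for G2/M members, against -0.05 for all genes. At an unadjusted p below 0.05, 4 were higher and 3 lower, and the share of all genes at that threshold was not counted. Among G1/S members, for which 0 passed edgeR's adjusted test, 1 did so before adjustment and 1 in DESeq2. Cdc20 was at 248, 72.7, 148 and 144 CPM in GL261 and 36.9, 39.6, 27.1 and 31.6 CPM in CT2A bulk tumors (-2.15 ± 0.40, adjusted p = 0.0065). Ccnb2 was at 50.9, 21.9, 39.7 and 51.6 CPM against 19.4, 19.2, 12.5 and 15.4 CPM (-1.25 ± 0.33, adjusted p = 0.0271). Even replicate 412, the lowest GL261 library, was above all 4 CT2A libraries for both. Cenpe was at 136, 53.2, 109 and 103 CPM in GL261 and 231, 255, 161 and 179 CPM in CT2A (1.09 ± 0.33, adjusted p = 0.0469). The bulk calls of Ccnb2 and Cenpe were lost when 1 library was left out in 7 and 6 of 8 cases, and that of Cdc20 in none of the 8, and Cenpe's also ended with the effective lengths as an offset. Without GL261 replicate 412, 1 member was higher and 8 were lower; without replicate 405, 4 were higher and 1 was lower.

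Set side by side, the 3 comparisons of the lines rest on separate libraries, so their values can be read against each other. Cenpe was higher in CT2A in all 3 (1.09, 1.07 and 1.2 in bulk, adherent and neurosphere order), and Ccnb2 (-1.25, -1.38 and -0.66) and Cdc20 (-2.15, -2.03 and -0.92) were lower in all 3. In both sorted comparisons 14 members were higher, 8 of them G1/S (Ccne1, Ccne2, E2f1, Mcm4, Mybl2, Pcna, Rrm1 and Rrm2) and 6 G2/M (Bub1, Bub1b, Ccna2, Cenpe, Kif11 and Kif23), and 4 G2/M members were lower (Ccnb2, Cdc20, Hmgb2 and Nusap1). The neurosphere calls of Nusap1 and Pcna among these were lost in most fits without 1 library. No member was called in opposite directions in any pair. The share of all genes called alike in these comparisons was not counted, so these counts are not particular to the members. Across the 25 G2/M members, log2 fold changes correlated between bulk and adherent comparisons (Pearson r = 0.92, Spearman rho = 0.90), bulk and neurosphere (0.87 and 0.86) and adherent and neurosphere (0.96 and 0.97). Across the 19 G1/S members r was 0.56, 0.49 and 0.78, and across all genes tested in both it was 0.75, 0.66 and 0.87. Between adherent and neurosphere comparisons the sign was the same for 38 of 44 members and for 10811 of 13427 genes tested in both. Genes are not independent replicates and share the libraries within a comparison.

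**Figure D4:**
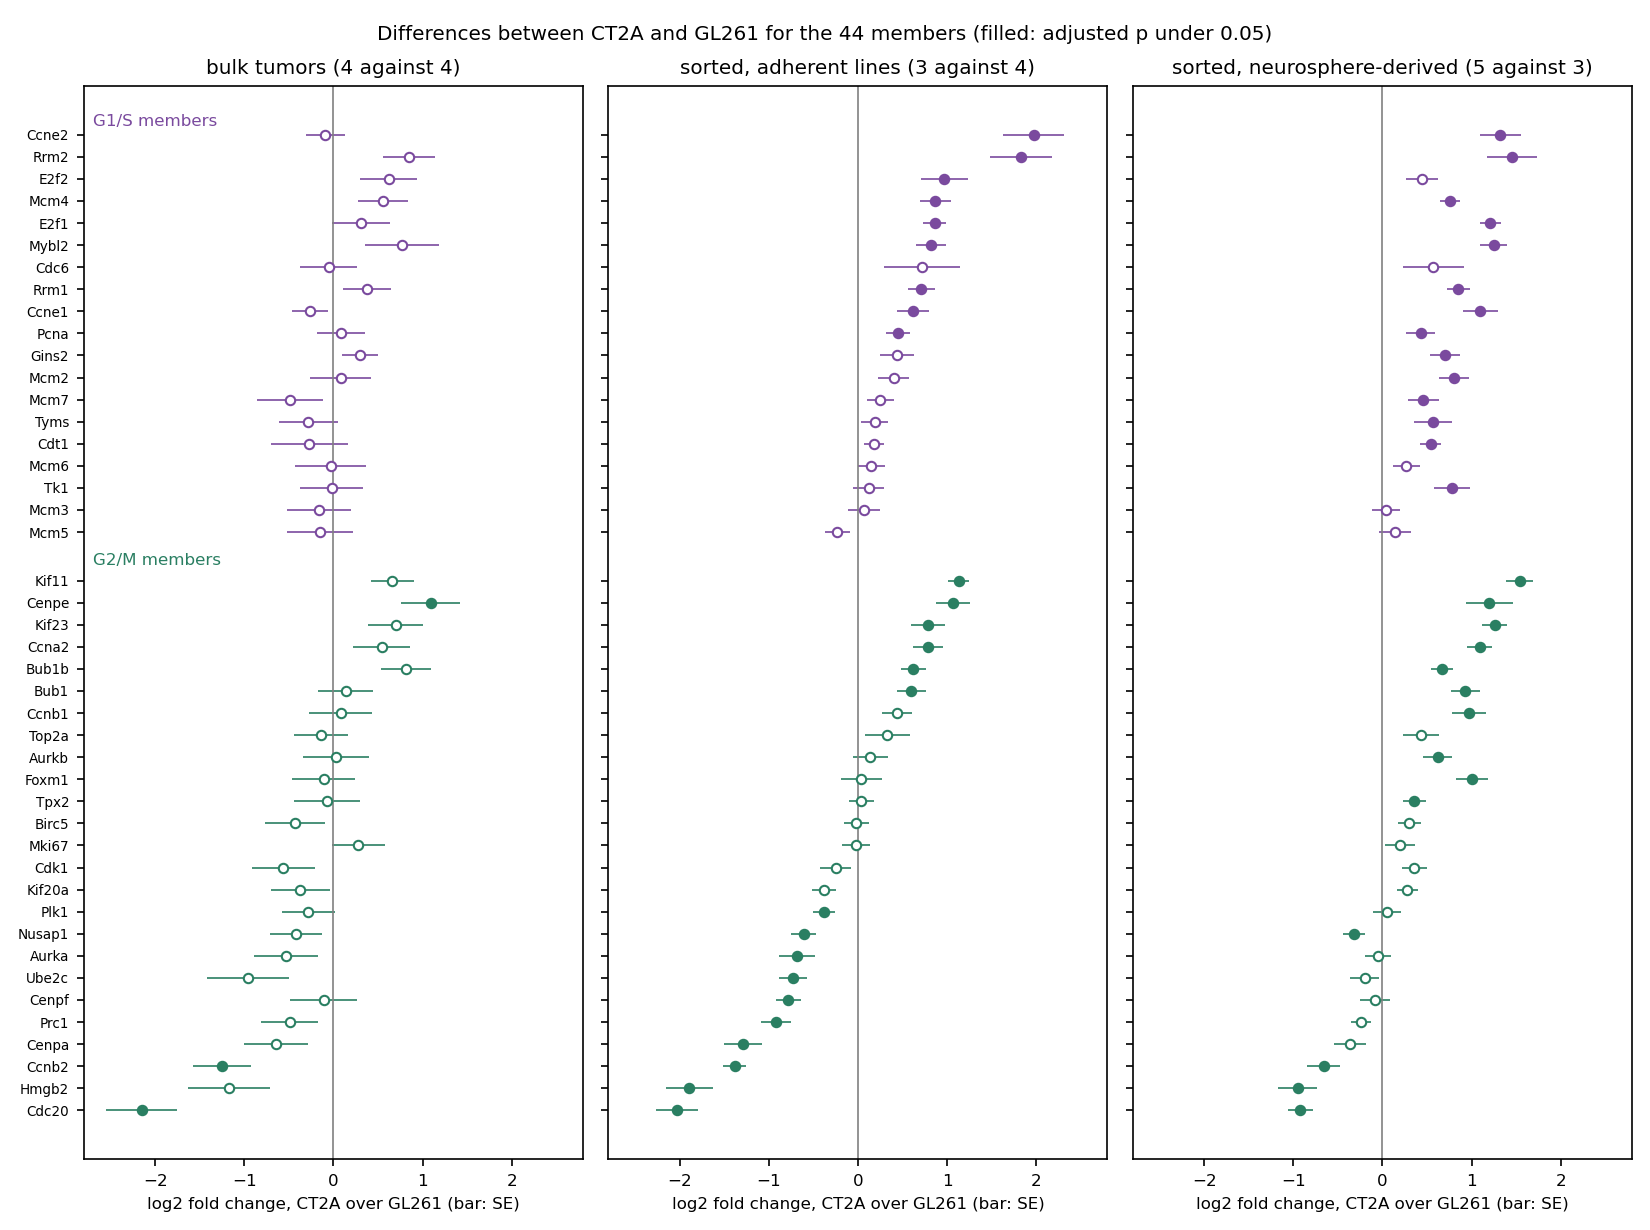
Log2 fold change of each of the 44 members, CT2A over GL261, in bulk tumors and in sorted cells of adherent and neurosphere origin; bars are SE and filled symbols have an adjusted p below 0.05. Cdc20 and Ccnb2 are filled on the lower side and Cenpe on the higher side in all 3 comparisons.

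Members without a call in any of the 3 comparisons of the lines were Birc5, Cdc6, Cdk1, Kif20a, Mcm3, Mcm5, Mcm6, Mki67 and Top2a. Among them Mki67, the usual proliferation marker, differed by 0.28 ± 0.30, -0.02 ± 0.16 and 0.20 ± 0.17 in bulk, adherent and neurosphere comparisons, and Top2a by -0.14 ± 0.30, 0.33 ± 0.25 and 0.43 ± 0.20. Cdk1 ranged from -0.56 to 0.36. A p that misses the threshold does not show equal levels. Mcm5 and Mcm6, whose promoters are printed above, had log2 fold changes from -0.23 to 0.14 and from -0.03 to 0.27.

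Ratios of counts of 2 members within a library do not depend on how libraries are scaled. The pairs were picked after the opposite changes of their genes were seen, so the ratios are a description. The log2 ratio of Kif11 to Cdc20 was -0.91 ± 0.52 (SD, n = 4) in GL261 and 1.78 ± 0.08 (n = 4) in CT2A bulk tumors. It was -0.84 ± 0.33 (n = 4) and 2.29 ± 0.20 (n = 3) in adherent-line cells. In neurosphere-derived cells it was -0.59 ± 0.17 (n = 3) and 1.88 ± 0.11 (n = 5), and over all 23 libraries GL261 stayed at or below -0.39 and CT2A at or above 1.72. The log2 ratio of the B-type cyclins Ccnb1 and Ccnb2 separated the lines too: 1.19, 0.64 and 0.77 in GL261 groups against 2.55, 2.45 and 2.40 in CT2A groups, in bulk, adherent and neurosphere order. That of Rrm2 to Tk1 was 0.93 to 1.18 in GL261 and 1.73 to 2.03 in CT2A bulk tumors and -0.35 to 1.04 and 2.29 to 2.66 in adherent-line cells, but overlapped in neurosphere-derived cells, at 0.63 to 1.54 and 0.89 to 2.36. Pseudogenes annotated for Ccnb1 and Ccnb2 can share reads with their parents. With RSEM's estimated counts instead of Salmon's the log2 fold change of Ccnb2 was -1.13 (adjusted p = 0.024) in bulk tumors and -1.44 (adjusted p = 4.21e-05) in adherent-line cells.

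Transcript length followed the G2/M pattern in part. The log2 fold changes of the 25 G2/M members correlated with log2 effective length at r = 0.54 (rho = 0.64) in bulk tumors, 0.38 (0.43) in adherent and 0.32 (0.36) in neurosphere comparisons, and those of all genes tested at 0.00, 0.08 and 0.01. Cenpe (mean effective length 7127 bases) and Kif11 (4582) were higher in both sorted comparisons, and Ccnb2 (1308), Cdc20 (1512) and Hmgb2 (1859) lower. Other members departed from this order. Kif23, at 1577 bases, was higher in both, and Mki67, the longest member at 9590 bases, was called in neither. Cenpf, at 8994 bases, was lower in adherent-line cells (-0.78 ± 0.14) and did not pass in neurosphere-derived ones (-0.08 ± 0.17). The part of length in the pattern was not tested.

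The second question was whether neurosphere culture before implantation changed the members within a line. In GL261 sorted cells 1 member was called, lower after neurosphere culture, against 8.53% of all genes (7.58% higher and 0.951% lower). This was Cenpf, which encodes a kinetochore protein of G2 and mitosis, at 186, 148, 153 and 185 CPM in adherent and 87.4, 93.5 and 116 CPM in neurosphere libraries (-0.73 ± 0.15, adjusted p = 0.0232), with no overlap. The call ended without adherent replicate 84 or neurosphere replicate 89 or 90, and without adherent replicate 81 there were 1 higher and 3 lower members. All 25 G2/M members had negative log2 fold changes, from -0.73 to -0.17 with a median of -0.30 against -0.03 for all genes. At an unadjusted p below 0.05, 10 were lower, and the share of all genes at that threshold was not counted. G1/S members had a median of 0.04. GL261 neurosphere libraries had the higher macrophage marker level given above, and its part here was not tested.

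In CT2A sorted cells 0 of 44 members were called by edgeR (smallest adjusted p = 0.197, for E2f1), against 0.167% of all genes (0.0532% higher and 0.114% lower). At an unadjusted p below 0.05, 7 were higher after neurosphere culture and 0 lower. The 0.167% of all genes is at the adjusted threshold, and their share at the unadjusted one was not counted. DESeq2 called 1 member higher. Medians were 0.12 for G1/S and 0.05 for G2/M members. The members' log2 fold changes correlated with log2 effective length at r = -0.53 (rho = -0.57), and those of all genes at -0.24 (-0.35).

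The change of the line difference between cultures was tested as an interaction, which 6.66% of all genes passed (0.962% higher and 5.7% lower). Cdc20 (1.06 ± 0.27, adjusted p = 0.0282) and Kif20a, a motor of cytokinesis (0.61 ± 0.17, adjusted p = 0.0463), passed among the 44. For Cdc20 this meant a smaller deficit of CT2A after neurosphere culture, since GL261 was at 85.8 to 161 CPM in adherent and 65 to 73.3 CPM in neurosphere libraries while CT2A was at 24.8 to 46.8 CPM in all 8 sorted libraries. Kif20a was at 94.4, 98.8, 80.4 and 110 CPM in GL261 and 79.3, 81.3 and 69 CPM in CT2A adherent libraries, and at 62.7, 68.1 and 75 CPM in GL261 and 87.2, 86.7, 89.7, 91.6 and 73.2 CPM in CT2A neurosphere libraries. Its order of the lines turned, although neither separate comparison passed (-0.38, adjusted p = 0.0527, and 0.28, adjusted p = 0.068). The call of Cdc20 ended without CT2A adherent replicate 70 or 71 or GL261 neurosphere replicate 89 or 91, that of Kif20a in 11 of 15 such fits, and the number of members called ran from 0 to 4. The median interaction was 0.45 for G2/M and 0.16 for G1/S members, against 0.05 for all genes.

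The third question was how bulk tumors differ from purified cells of the same line. Here preparation, subline, number of cells implanted, read length and library kit changed together with sorting and cannot be told apart from it. In GL261, 2 of 44 members were higher in bulk tumors and 0 lower (edgeR, adjusted p below 0.05). This is 4.55%, against 34.6% of all genes (20.1% higher and 14.5% lower). At an unadjusted p below 0.05, 4 members were higher and 0 lower, and the share of all genes there was not counted. Ccne2 was at 31.2, 19.7, 25.8 and 25.4 CPM in bulk against 3.57, 10.8, 10.6 and 8.26 CPM in sorted cells (1.51 ± 0.34, adjusted p = 0.0102). Gins2, a subunit of the GINS helicase cofactor, was at 43.1, 33.7, 31.4 and 29.3 against 12.3, 15.9, 10.4 and 14.4 CPM (1.26 ± 0.21, adjusted p = 0.00313). Neither overlapped, but with the transcripts' effective lengths as an offset the log2 fold change of Gins2 was -0.68, and with RSEM counts 0.34, so its direction rests on the quantification. Without GL261 bulk replicate 412, 6 members were higher in bulk tumors.

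In CT2A, 2 members were higher and 3 lower in bulk tumors, 11.4% against 49.9% of all genes (26.9% higher and 23% lower). Gins2 was at 41.4, 47.4, 39.9 and 33.3 CPM in bulk and 19.8, 18.7 and 17.4 CPM in sorted cells (1.17 ± 0.14, adjusted p = 0.000737), with the same reversal (-0.15 with length offset, -0.10 with RSEM counts). Hmgb2 was at 88, 98.9, 72.3 and 68.7 against 59.1, 53.6 and 46.2 CPM (0.69 ± 0.16, adjusted p = 0.00785). Mcm4 was lower in bulk tumors, at 119, 120, 86.4 and 89.6 against 157, 181 and 169 CPM (-0.65 ± 0.15, adjusted p = 0.00753). So were Ccne2, at 24.5, 26.8, 18.4 and 22.6 against 35.7, 36.4 and 29.2 CPM (-0.49 ± 0.16, adjusted p = 0.0303), and Bub1, at 65.2, 78.9, 52.8 and 50.5 against 95.9, 89.6 and 83.7 CPM (-0.48 ± 0.16, adjusted p = 0.0378). None of these 5 overlapped between bulk and sorted libraries. Bub1's call was lost in 6 of 7 fits without 1 library and that of Ccne2 in 4 of 7, so that 1 member was lower without bulk replicate 47 or 48 or sorted replicate 69 or 70, and without bulk replicate 48, 4 were higher.

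Both cyclin E genes had a different line contrast in bulk tumors and sorted cells. The interaction was -2.16 ± 0.40 (adjusted p = 0.00317) for Ccne2 and -0.97 ± 0.26 (adjusted p = 0.0216) for Ccne1, against 13.5% of all genes called (5.81% higher and 7.68% lower). In bulk tumors Ccne1 was at 28.2, 18.1, 24.5 and 25.6 CPM in GL261 and 19.2, 21.2, 18 and 19.1 CPM in CT2A, and in adherent-line cells at 15.4, 16.5, 11.2 and 15.3 against 25, 23.8 and 20.9 CPM. The lines overlapped in bulk tumors for both genes and did not in sorted cells. All 19 G1/S members had a negative interaction, with a median of -0.44 against -0.12 for all genes, a shift that was -0.00175 under DESeq2's size factors and exceeds the value of the member nearest to 0, Mcm5 (-0.01 ± 0.39). The median was -0.16 without GL261 bulk replicate 405 and -0.62 without 412, where 5 members passed. Ccne1's call ended in 5 of 15 fits without 1 library, replicate 405 among them, and that of Ccne2 in none of the 15. G2/M members had a median of -0.18.

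Other genes of the cell cycle, from lists chosen with earlier results known, were counted in the same way. Of 33 other G1/S genes, 1 was higher and 2 lower in CT2A bulk tumors, 10 higher and 1 lower in adherent-line cells, and 19 higher and 0 lower after neurosphere culture, with medians of 0.02, 0.28 and 0.57. Chaf1b, a subunit of the chromatin assembly factor of replication, was higher in all 3 (1.48, 1.57 and 1.61), and Nasp, a histone chaperone, in both sorted comparisons (1.35 and 1.37). Of 30 other G2/M genes, 1 was higher and 3 lower in bulk tumors, 7 and 10 in adherent-line cells and 14 and 4 after neurosphere culture. Of all genes tested, 11.4% were higher and 11.9% lower in bulk tumors and 24% and 26.8% in adherent-line cells. After neurosphere culture these shares were 29.9% and 29.6%. In sorted cells the calls of the other G2/M genes in either direction were near the shares of all genes, 50.8% and 59.5%. The securin gene Pttg1 (-1.99, -1.63 and -0.89), Cdca2 (-1.92, -2.18 and -1.41) and Hmmr (-1.03, -1.10 and -0.76) were lower in all 3, and Kif20b (0.94, 1.45 and 1.51) was higher in all 3. The condensin subunit Smc4 (1.29 and 1.53) and Cks1b (1.53 and 1.79) were higher in both sorted comparisons.

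D-type cyclins, their kinases and the CDK inhibitors act upstream of the members. Of the 17 G1 cyclins, CDKs and RB pathway genes, 0 were higher and 2 lower in CT2A bulk tumors, and of the 16 tested in sorted cells, 4 were higher and 7 lower in adherent-line cells and 4 higher and 5 lower after neurosphere culture. These are 11.8%, 68.8% and 56.2% of those tested, against 23.3%, 50.8% and 59.5% of all genes. Ccnd3 (-2.15, -2.90 and -2.43) and Ccnd2 (-1.58, -1.61 and -1.76), partners of CDK4 and CDK6, were lower in all 3, whereas Cdc25a, a phosphatase that activates CDKs, was higher in both sorted comparisons (1.0 and 1.13). Of 7 CDK inhibitors, 0 were higher and 3 lower in bulk tumors and 1 higher and 5 lower in adherent-line cells. After neurosphere culture 1 was higher and 4 lower. The shares of all genes beside these counts are those just given. Cdkn2a, which encodes p16INK4a and p19ARF, was lower in all 3 (-4.12, -2.82 and -2.06), and Cdkn2c was higher in both sorted comparisons (1.14 and 1.54). Cdkn2b had no reads in any CT2A adherent library, which is at least 41.4-fold lower than the GL261 mean of 13.9 CPM when 3 counts per library are taken as the floor.

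Lastly, GL261 adherent replicate 81 and CT2A neurosphere replicate 59 departed from their groups in a like way, which was seen in the values before it was measured. In replicate 81, against the mean of its group's other libraries, Cdc6 differed by -2.0, Rrm2 by -1.60 and Ccne2 by -1.46 on the log2 scale, and Hmgb2 by 0.90, Foxm1 by 0.80 and Cdc20 by 0.77. In replicate 59 Cdc6 differed by -1.21, Rrm2 by -1.03 and Cenpe by -0.95, and Hmgb2 by 0.85 and Ccnb1 by 0.68. Across the 44 members the 2 sets of deviations had r = 0.80 (rho = 0.72), with 14 members above their group in both and 20 below in both. The macrophage marker score was the lowest of its group in replicate 81 (3.34) and the highest in replicate 59 (7.0). T cell and B cell scores were also lowest in replicate 81 and highest in replicate 59. Scores of neuron (1.33 and 0.88), pericyte (1.32 and 1.74) and astrocyte markers (3.86 and 2.55) were the lowest of their groups in both. The part of other cells in these deviations was not tested. Without replicate 81, 17 members were higher and 11 lower in CT2A adherent cells, and without replicate 59, 28 were higher and 5 lower after neurosphere culture.

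**Figure D5:**
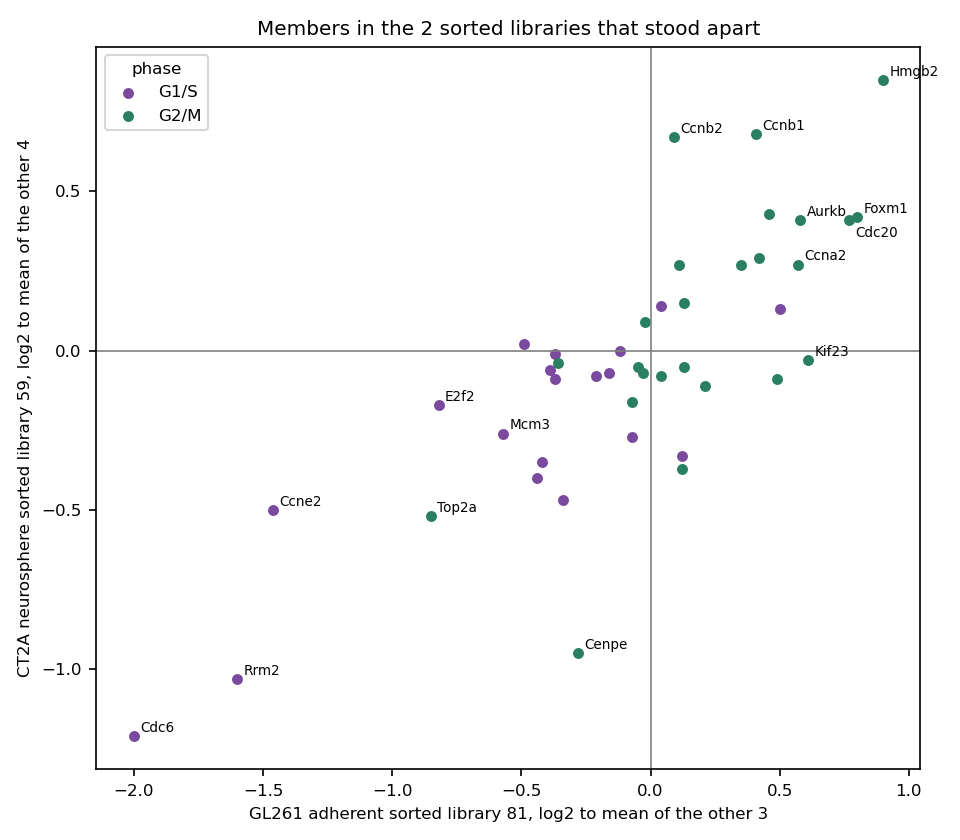
Deviation of each member in GL261 adherent replicate 81 (x axis) and CT2A neurosphere replicate 59 (y axis) from the other libraries of its own group, in log2 units; each point is a gene. Most points lie in the quadrants where both libraries deviate alike, 14 above and 20 below.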

How the data were processed

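RNA-seq libraries of 23 mouse tumors in 6 groups were analysed from the deposited per-library transcript tables. The authors estimated transcript abundance with Salmon against a mouse mm10 transcriptome, and per the labels STAR 2.7.7a, RSEM 1.3.3 and DESeq2 1.30.1 were also used. Salmon's deposited estimated counts were summed per gene, rounded to whole numbers and tested, and the deposited TPM values were used only to compare levels between genes. RSEM's deposited expected counts, given for 15 libraries, served as an alternative. Transcripts without a gene held 0.0413% to 0.152% of reads.

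Genes with a mean TMM-normalized count of at least 10 in the libraries compared were fitted with edgeR 4.0.16 (TMM, quasi-likelihood F test) in R 4.3.3, with only the groups of a comparison in each fit and no covariate, and p was adjusted over all genes tested by Benjamini and Hochberg with a threshold of 0.05. Differences between differences were fitted as interactions over 4 groups. Alternatives were DESeq2 1.42.0, its size factors, other count minimums, an offset for effective length, 1 fit over all 6 groups, a minimum log2 change of 1, RSEM counts and leaving out each library; TMM before the minimum was added after seeing the data. Scores are means of log2(CPM + 1). Simulated counts in which 200 genes were changed were used to check the fit (tested on simulated data): for lines in adherent-derived cells (13693 genes) 35.9% of 2-fold and 88.2% of 4-fold changes were recovered, and in bulk tumors (15273 genes) 11.9% and 67.2%. Depth was 7395846 to 42608400 reads. No 2 libraries of a group agreed within sampling noise (chi-square per degree of freedom at least 5.09). The members and all gene lists were chosen with earlier results of these data known. Members described in full are, for each phase and comparison, the up to 4 higher and 4 lower with the smallest p past the threshold and those called against the majority of their phase; from the other lists up to 3 in each direction were taken. The reporter used for sorting is not reported here.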

Additional observations from a re-analysis of the deposited data

Results flagged for a closer look

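Some libraries stood far from the others of their group for a member, by Dixon's criterion, which chance meets in about 1 in 20 groups of values; here 6 of 188 met it. In GL261 bulk replicate 412 Mki67 was at 148 CPM against 284 to 305 CPM in the other 3 libraries, and Bub1b at 33.3 CPM against 58.7 to 63.7 CPM. In GL261 adherent replicate 81 Ccnb1 was at 87.8 CPM against 64.7 to 67.4 CPM and Hmgb2 at 291 CPM against 148 to 171 CPM. In CT2A neurosphere libraries Rrm2 was at 63.3 CPM in replicate 59 against 118 to 137 CPM, and Kif20a at 73.2 CPM in replicate 61 against 86.7 to 91.6 CPM.

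The difference between the lines changed with the kind of sample for 4 members, tested as an edgeR interaction. From sorted adherent-line cells to bulk tumors it changed by -2.16 for Ccne2 and -0.97 for Ccne1 on the log2 scale. From adherent to neurosphere culture it changed by 1.06 for Cdc20 and 0.61 for Kif20a.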

How the results depend on the processing

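Directions between the lines were stable: apart from Gins2, each call of a member in any comparison kept its sign under every alternative run. Gins2, higher in bulk than in sorted cells, had log2 fold changes of -0.68 (GL261) and -0.15 (CT2A) with the effective length offset and -0.10 (CT2A) with RSEM counts. Numbers of members called moved more. They are given without the shares of all genes called under the same settings. They therefore do not show whether a setting moved the members more than other genes, and the same holds for leaving out libraries. In CT2A against GL261 bulk tumors, DESeq2 called 4 higher, the length offset 0, the fit over 6 groups 9 higher and 4 lower, and RSEM counts 4 higher. Requiring a log2 change of at least 1 left 4 higher and 4 lower in adherent-line cells and 10 and 0 in neurosphere-derived cells. For culture in GL261, DESeq2 called 1 higher and 3 lower, the length offset 3 lower, and the fit over 6 groups and the log2 minimum 0 lower; in CT2A, DESeq2 called 1 higher. For bulk against sorted GL261, the length offset and RSEM counts gave 1 higher each, and the fit over 6 groups 5 higher and 1 lower. For CT2A, each of the length offset, the fit over 6 groups, the log2 minimum and RSEM counts gave 1 higher, with 1 lower in the fit over 6 groups and 0 lower at the log2 minimum. For the interaction with culture, DESeq2 called 7 higher, no count minimum 1 and the fit over 6 groups 0. RSEM counts existed for 15 libraries and gave no neurosphere fit.

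Leaving out 1 library at a time gave 0 to 4 higher and 1 to 8 lower members in bulk tumors, 11 to 17 and 8 to 11 in adherent-line cells and 20 to 28 and 2 to 5 in neurosphere-derived cells. It gave 0 to 1 and 0 to 3 for culture in GL261, 2 to 6 higher for bulk against sorted GL261 and 2 to 4 and 1 to 4 for CT2A, 1 to 5 lower for the interaction with bulk and 0 to 4 higher for that with culture. Over all calls of single members, 451 kept their side of the threshold in these fits and 90 lost it.

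With TPM in place of CPM the G1/S score was 5.36 and 5.70 in GL261 and CT2A bulk, 5.01 and 5.68 in GL261 and CT2A adherent, and 4.98 and 5.69 in GL261 and CT2A neurosphere libraries, and the G2/M score 6.04, 6.01, 5.86, 5.74, 5.43 and 5.74 in the same order. The difference of the scores was -0.68, -0.30, -0.85, -0.06, -0.45 and -0.06. No paired analysis was possible because no replicate number occurs in more than 1 group. With 200 of 15273 genes changed, 11.9% of simulated 2-fold changes were recovered between bulk tumors. In the measured bulk tumors 23.3% of all genes were called, so this rate need not hold for the members. Recovery at the levels of the members was not tested, and a missed call in bulk tumors does not show equal levels.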
